A study of Mus musculus with 4 samples.

Results

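The genes of the proteasome were compared between naive CD8 T cells of Klf13 knockout and wild-type mice. Members were all genes whose single annotated symbol began with Psma, Psmb, Psmc, Psmd or Psme followed by a number, each read from the brightest of its probe sets by mean value. This gave 45 of the 19938 genes tested. They comprised 8 genes of the alpha ring, 7 of the standard beta ring, the 3 immunoproteasome genes, the thymic subunit gene Psmb11, 9 genes of the base and 8 of the lid of the cap, 3 chaperones of cap assembly and 4 activators. The remaining 2 symbols, Psmc3ip and Psme3ip1, met the rule by name but encode a meiotic recombination factor and a protein that binds an activator, and they are described apart. Values are log2 probe-set values from 1-colour whole-transcript Affymetrix arrays. A knockout minus wild-type difference of 1 on this scale is a doubling, and n is the number of arrays.

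The cells were sorted by flow cytometry from spleens of the BALB/c strain, with 2 samples labelled KLF13 KO and 2 labelled wild type and no treatment named. Klf13 is a zinc-finger transcription factor that binds GC-rich promoter boxes, and the title of the series concerns its part in memory-like CD8 T cells. Not given in the sources used here are the deleted part of Klf13, the age of the mice and whether samples of one genotype are from different animals. The p-values therefore measure only how these samples vary, which may be technical. Klf13 read 5.46 and 5.43 in the knockout arrays against 7.01 and 7.15 in wild type, a 3.10-fold lower value (difference -1.63, SE 0.10, limma adjusted p = 3.75e-05).

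The proteasome degrades proteins that carry ubiquitin chains. Its core particle is a barrel of alpha and beta rings, and the beta rings hold the cutting sites inside. The cap recognises the ubiquitin chain, removes it, unfolds the protein with a ring of ATPases and feeds it into the core. In lymphocytes the subunits Psmb8, Psmb9 and Psmb10 are built into many cores in place of the standard cutting subunits Psmb5, Psmb6 and Psmb7. This immunoproteasome, together with the activator made of Psme1 and Psme2, is induced by interferon and cuts peptides that suit MHC class I molecules.

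No member passed the limma test at an adjusted p under 0.05, against 2.25% of all genes tested (1.19% higher and 1.05% lower). Adjusted p-values of the 45 members ran from 0.174 (Psmb2) to 0.995 (Psmd3). At an unadjusted p under 0.05, 6 members were lower in the knockout (Psmb2, Psmc1, Psmc4, Psmd6, Psmd12 and Psmd14) and 0 were higher, where 8.75% of all genes were lower and 7.85% higher. The differences were small and mostly of one sign. They were negative for 38 of the 45 members against 45.9% of all genes, and the median was -0.13 against 0.015 over all genes. The count of negative differences depended on the scaling, with 32 after a further quantile normalization, 33 with each array centred on the brightest 10% of genes and 44 with each array centred on its median. The per-gene 95% intervals, not adjusted for the number of genes, all lay between -0.53 and 0.34, that is from 1.44-fold lower to 1.27-fold higher in the knockout.

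For 33 members each knockout value was below each wild-type value, while the reverse held for 2 (Psme1 and Psmb11) and the groups overlapped for 10. Over all genes 23.2% had both knockout arrays below and 24.4% both above. That share depended on the level, and the members are mostly bright. Of the 45, 30 were among the 10% of genes with the highest mean values, which are 1994 genes. In that bright set 48.7% of genes had both knockout arrays below, 73.9% had a negative difference and the median difference was -0.074. Both knockout arrays were above in 13.7% of it, 15.5% had an unadjusted p under 0.05 (12.3% lower and 3.26% higher), and 1.71% passed the test (0.752% higher and 0.953% lower). Mean levels also reflect how well a probe set binds, so they are used here only to place genes and not to set one gene against another.

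Knockout array 1 stood apart from the other arrays in these genes. It held the lowest of the 4 values for 39 of the 45 members, as it did for 64.3% of the brightest 10% of genes and 34.8% of all genes. The median difference of knockout array 1 from wild-type arrays 1 and 2 was -0.19 and -0.17 over the members. In knockout array 2 both medians were -0.074. The median difference between the knockout arrays themselves was -0.078, and that between the wild-type arrays 0.0057. Without knockout array 1 the median over the members was -0.075, that over the brightest 10% of genes outside the proteasome was -0.035, and 0 members passed against 1.32% of all genes. Knockout array 2 alone lay below both wild-type arrays for 33 members, against 52.9% of the brightest 10% and 36% of all genes.

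**Figure D1:**
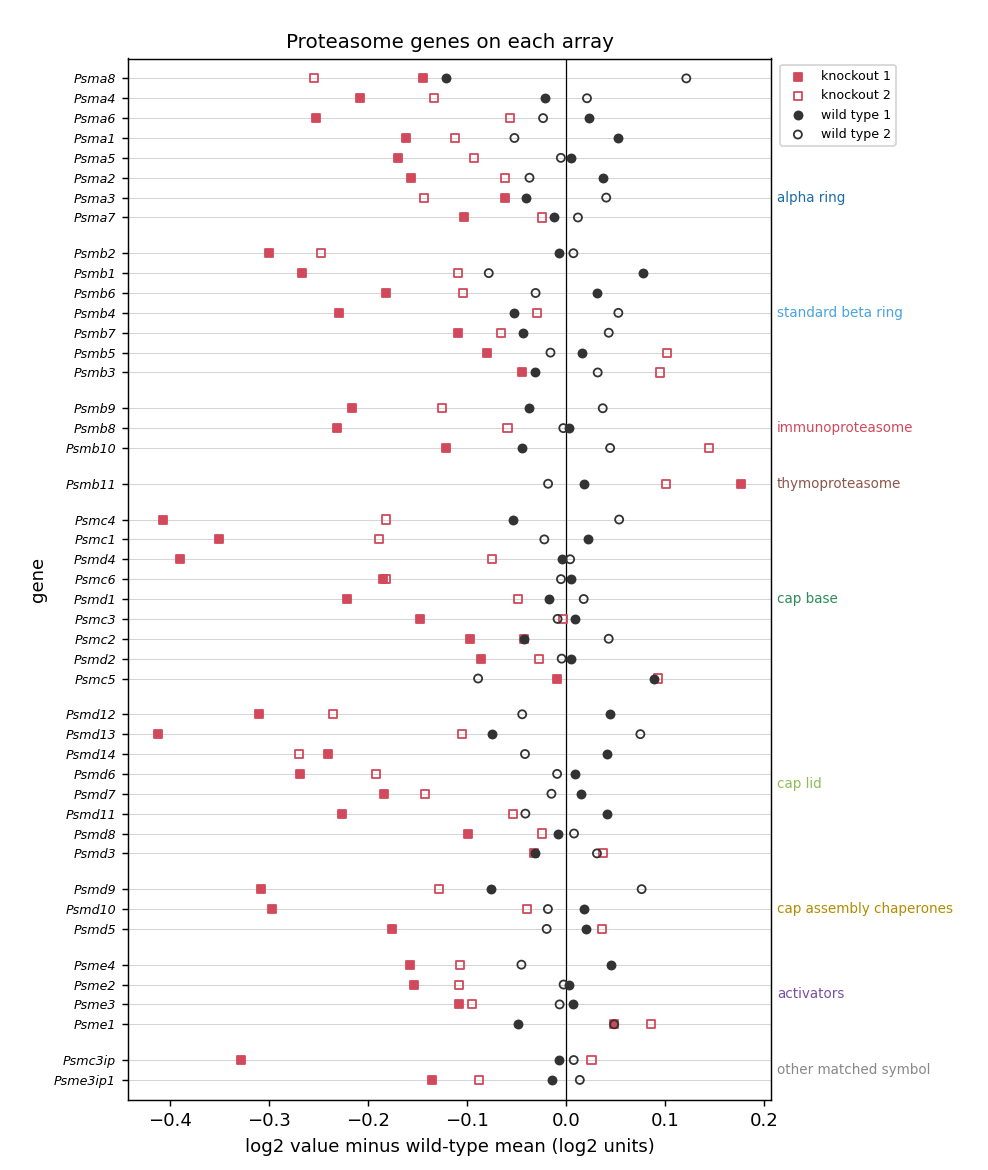
Log2 value of each proteasome gene on each array minus its wild-type mean (horizontal axis, log2 units), with genes in rows grouped by role, filled and open squares for knockout arrays 1 and 2, and filled and open circles for wild-type arrays 1 and 2. The filled square lies farthest left for 39 of the 45 genes.

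RefSeq promoters of the mouse assembly GRCm38.p6 were matched to 38 of the 45 members by symbol. Psma8, Psmb1, Psmb2, Psmb7, Psmc3, Psmd3 and Psmd7 were not matched. The 250 bases before the start of transcription are given for Psmb8 and Psmb9, the immunoproteasome genes of the MHC region, for Psmb5 as the standard counterpart of Psmb8, and for Psmd12, the matched member with the smallest p. They are written 5′ to 3′ on the gene's strand, at chr17:34197945-34198194 (plus strand) for Psmb8, chr17:34187331-34187580 (minus) for Psmb9, chr14:54617996-54618245 (minus) for Psmb5 and chr11:107479278-107479527 (plus) for Psmd12. Capitals mark matches, on either strand, to the antioxidant response element TGACNNNGC, the interferon-stimulated response element (GAAA repeated with any 2 bases between) and the GC boxes CCACGCCC and CCCCGCCC.
Psmb8: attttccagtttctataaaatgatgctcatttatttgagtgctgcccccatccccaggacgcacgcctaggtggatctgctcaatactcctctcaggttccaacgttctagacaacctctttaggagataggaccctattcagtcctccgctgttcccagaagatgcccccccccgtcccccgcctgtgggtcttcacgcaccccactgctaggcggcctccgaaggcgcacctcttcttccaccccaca
Psmb9: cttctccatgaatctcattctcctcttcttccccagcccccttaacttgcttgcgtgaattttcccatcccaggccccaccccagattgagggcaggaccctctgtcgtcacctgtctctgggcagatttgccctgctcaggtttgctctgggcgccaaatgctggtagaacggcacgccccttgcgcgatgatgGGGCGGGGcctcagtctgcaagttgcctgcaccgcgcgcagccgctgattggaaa
Psmb5: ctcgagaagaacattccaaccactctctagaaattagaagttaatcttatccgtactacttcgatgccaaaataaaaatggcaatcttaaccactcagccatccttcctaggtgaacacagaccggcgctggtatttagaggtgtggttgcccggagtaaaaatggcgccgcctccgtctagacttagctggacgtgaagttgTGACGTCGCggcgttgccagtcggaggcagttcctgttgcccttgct
Psmd12: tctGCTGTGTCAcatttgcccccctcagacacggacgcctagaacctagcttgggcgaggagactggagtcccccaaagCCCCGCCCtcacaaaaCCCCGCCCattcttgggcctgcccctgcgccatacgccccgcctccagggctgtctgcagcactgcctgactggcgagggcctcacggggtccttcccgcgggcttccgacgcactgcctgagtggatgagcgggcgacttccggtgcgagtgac

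The Psmb9 window overlaps by 225 bases that of Tap1, the peptide transporter gene read from the other strand, and it holds 1 GC box. The Psmd12 window holds 2 GC boxes and 1 antioxidant response element, the Psmb5 window 1 antioxidant response element, and the Psmb8 window none of these patterns. Counted over all 42 windows of the members, CCCCGCCC occurred in 26.2% against 16.1% of 32851 windows of the whole table, CCACGCCC in 2.38% against 4.79%, TGACNNNGC in 11.9% against 10.2% and the interferon-stimulated response element in 7.14% against 2.98%. Matches of different patterns shared bases in 1 of the 42 windows, that of Psmd9. The antioxidant response element is the pattern through which Nfe2l1 acts on proteasome genes, and among the members it was found before Psmb5, Psmb6, Psmc6, Psmd9 and Psmd12. A match is a description of these letters only.

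The alpha ring forms the gated entrance of the core. All 8 of its genes had each knockout value below each wild-type value, the median difference was -0.13, and none passed the test. Both knockout arrays were also below in 48.7% of the bright set, which holds 7 of the 8, and in 23.2% of all genes. Psma4 had the smallest p, with 8.40 and 8.47 in knockout against 8.59 and 8.63 in wild-type arrays (difference -0.17, SE 0.09, limma adjusted p = 0.401). Psma6 read 8.17 and 8.36 against 8.44 and 8.40, a difference of -0.15 with knockout array 1 the farthest from the rest. The other alpha genes that somatic cells use, Psma1, Psma2, Psma3, Psma5 and Psma7, differed by -0.14, -0.11, -0.10, -0.13 and -0.063. The probe sets used for Psma3 and Psma5 may read copies elsewhere, and a dimmer probe set of Psma5 differed by -0.33. Psma8, the alpha subunit of the testis, was dim, at 4.35 and 4.24 against 4.37 and 4.61, and its difference of -0.20 was no larger than the gap of its wild-type arrays.

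The standard beta ring showed a wider spread, from -0.27 to 0.025 with a median of -0.13 (-0.066 without knockout array 1 and -0.077 without wild-type array 2). Psmb2, a beta subunit with no cutting site, had the smallest p of all members. Its values were 8.37 and 8.42 in knockout against 8.66 and 8.67 in wild-type arrays, which is 1.21-fold lower (difference -0.27, SE 0.09, 95% interval -0.48 to -0.07, limma adjusted p = 0.174). Both groups were tight and lay well apart, yet the adjusted p was above the threshold. With a variance trend and robust moderation Psmb2 did pass (limma adjusted p = 0.0400), as did 4.17% of all genes, and without knockout array 1 its difference was -0.25. Psmb1, another subunit with no cutting site, read 7.62 and 7.78 against 7.96 and 7.81 (-0.19), and Psmb4 differed by -0.13 with overlapping groups. Psmb3, which differed by 0.025, overlapped as well.

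Of the 3 standard cutting subunits 0 passed, and they were not tested against one another. Psmb6, which cuts after acidic residues, read 8.75 and 8.82 against 8.96 and 8.90 (difference -0.14, SE 0.09, limma adjusted p = 0.489). Psmb7, which cuts after basic residues, read 9.14 and 9.18 against 9.20 and 9.29 (-0.087, SE 0.09, limma adjusted p = 0.694). Psmb5, which cuts after hydrophobic residues and is the main target of proteasome inhibitor drugs, read 7.48 and 7.66 against 7.57 and 7.54 (0.011, SE 0.10, limma adjusted p = 0.970). Its knockout values lay on either side of the wild-type values. Its difference was -0.080 without knockout array 2 and -0.0048 without wild-type array 2. Centring each array on its median moves every gene by -0.086, which takes Psmb5 to -0.075.

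Of the 3 immunoproteasome genes 0 passed, and their median difference was -0.15. Psmb9, the inducible partner of Psmb6, read 8.54 and 8.63 in knockout against 8.72 and 8.79 in wild-type arrays (difference -0.17, SE 0.09, 95% interval -0.38 to 0.04, limma adjusted p = 0.411). Psmb8, the inducible partner of Psmb5, read 8.32 and 8.49 against 8.55 and 8.55 (-0.15, SE 0.10, 95% interval -0.36 to 0.07, limma adjusted p = 0.507). In both genes the knockout arrays lay below the wild-type arrays, as in 48.7% of the bright set and 23.2% of all genes. Knockout array 1 was the lower in each. It held the lowest value for 64.3% of the bright set and 34.8% of all genes. Psmb10, the inducible partner of Psmb7, read 7.67 and 7.93 against 7.74 and 7.83 (0.012, SE 0.11, 95% interval -0.23 to 0.26, limma adjusted p = 0.971). Its knockout arrays enclosed the wild-type arrays, and its difference was -0.12 without knockout array 2, -0.033 without wild-type array 1 and -0.074 under the median centring. Without knockout array 1 Psmb8, Psmb9 and Psmb10 differed by -0.059, -0.13 and 0.14, a median of -0.059.

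Each inducible subunit was then set against the standard subunit it replaces, as the difference between their knockout minus wild-type differences. This was -0.16 for Psmb8 less Psmb5, -0.027 for Psmb9 less Psmb6 and 0.099 for Psmb10 less Psmb7. An exact two-sided permutation test over the 4 arrays gave p = 0.333, 1 and 1, and each adjusted p over the 3 pairs was 1. With 2 arrays against 2 the test cannot go below 0.333, so it could not call any pair. The SD of the within-array difference between the probe sets was 0.0064 in the knockout and 0.018 in the wild type for Psmb8 and Psmb5, 0.0092 and 0.096 for Psmb9 and Psmb6, and 0.157 and 0.0020 for Psmb10 and Psmb7. Psmb11, which replaces Psmb5 in cortical epithelium of the thymus, was dim at 4.26 and 4.19 against 4.10 and 4.07, a difference of 0.14 (limma adjusted p = 0.499).

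**Figure D2:**
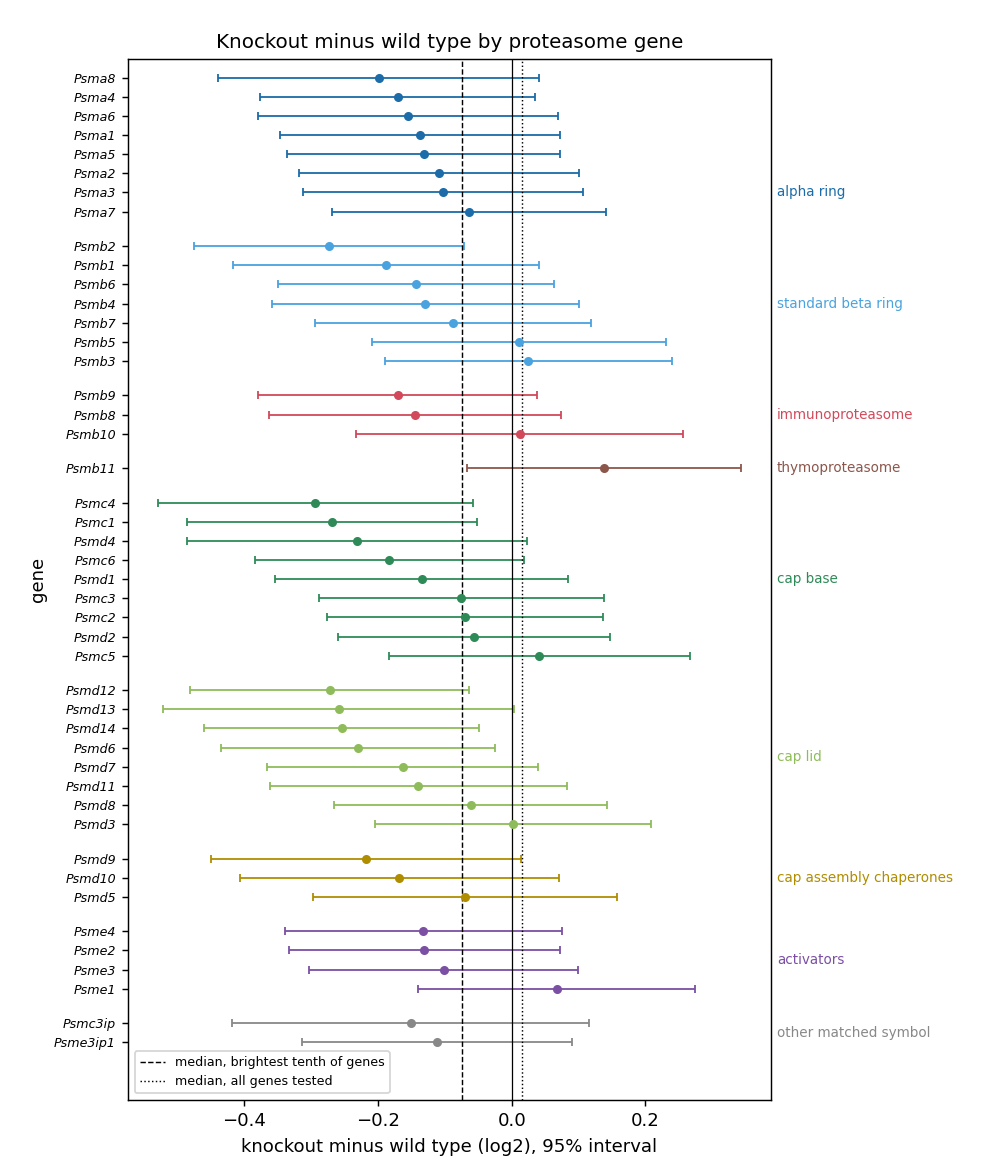
Knockout minus wild-type difference of each proteasome gene (horizontal axis, log2) with its per-gene 95% interval from limma, grouped by role, with a dashed line at the median of the brightest 10% of genes (-0.074) and a dotted line at that of all genes tested (0.015). The intervals of 39 of the 45 genes cross 0, and the 6 that do not are those of Psmb2, Psmc1, Psmc4, Psmd6, Psmd12 and Psmd14.

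The cap, with 17 of the 45 members, held 5 of the 6 members with an unadjusted p under 0.05, all lower. At that level 12.3% of the brightest 10% of genes and 8.75% of all genes were lower. Its base, the ATPase ring with its scaffold and a ubiquitin receptor, had a median of -0.13 over 9 genes (-0.048 without knockout array 1). In 6 of the 9 each knockout value was below each wild-type value. The same held for 48.7% of the brightest 10% of genes and 23.2% of all genes. The ATPase gene Psmc4 had the most negative difference of all members, at 7.84 and 8.06 in knockout against 8.19 and 8.30 in wild-type arrays, or 1.23-fold lower (-0.29, SE 0.11, limma adjusted p = 0.204). The ATPase gene Psmc1 read 7.98 and 8.14 against 8.35 and 8.31 (-0.27, SE 0.10, limma adjusted p = 0.209). Psmd4, a ubiquitin receptor, read 7.44 and 7.75 against 7.82 and 7.83 (-0.23, SE 0.11, limma adjusted p = 0.352). In Psmc4 and Psmd4 knockout array 1 lay far below the other 3, and without it their differences were -0.18 and -0.075. Without knockout array 2, so that array 1 stood alone for the genotype, both passed (limma adjusted p = 0.0498 for Psmc4 and 0.0464 for Psmd4), where 7.70% of all genes did against 2.25% with all arrays.

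The other base genes differed less. The ATPase gene Psmc6 was even within each genotype, at 8.77 and 8.77 against 8.96 and 8.94 (-0.18). The ATPase genes Psmc2, Psmc3 and Psmc5 overlapped between the genotypes, with differences of -0.070, -0.075 and 0.041. The scaffold genes Psmd1 and Psmd2 differed by -0.13 and -0.056, and in both the knockout arrays lay below the wild-type arrays.

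The lid, which carries the enzyme that removes the ubiquitin chain, had the most negative median of the larger role groups, at -0.20 over 8 genes (-0.12 without knockout array 1). In 7 of them each knockout value was below each wild-type value, as in 48.7% of the bright set and 23.2% of all genes. Psmd12, a scaffold subunit, read 8.20 and 8.27 in knockout against 8.55 and 8.46 in wild-type arrays (-0.27, SE 0.09, limma adjusted p = 0.189). Psmd14, the deubiquitinating enzyme itself, read 9.01 and 8.98 against 9.29 and 9.20, or 1.19-fold lower (-0.25, SE 0.09, limma adjusted p = 0.209). The knockout values of Psmd14 were closer together than its wild-type values, and knockout array 2 was the lower. It too passed with a variance trend and robust moderation (limma adjusted p = 0.0331). Psmd6, a further scaffold subunit, read 9.03 and 9.11 against 9.31 and 9.29 (-0.23, SE 0.09, limma adjusted p = 0.249).

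Without knockout array 1, Psmb2, Psmd12 and Psmd14 were lower at an unadjusted p under 0.05, with differences of -0.25, -0.23 and -0.27, as were 6.61% of all genes. That fit takes its spread from the wild-type pair and the moderation across genes, and assumes that the lone knockout array varies alike. In the fits without a wild-type array every member had the same standard error, 0.166, so their counts rest on a spread pooled across genes. The count of members was 19 without knockout array 2, where 16.2% of all genes were lower at that level. It was 2 without wild-type array 1 (Psmc4 and Psmd13, 3.62% of all genes) and 0 without wild-type array 2 (4.57% of all genes). Psmd13 read 7.25 and 7.56 against 7.59 and 7.74 (-0.26), again with knockout array 1 far below. Psmd7, the inactive partner of Psmd14, read 8.58 and 8.62 against 8.78 and 8.75 (-0.16), while Psmd11 and Psmd8 differed by -0.14 and -0.061. Psmd3 was level, at 7.39 and 7.46 against 7.40 and 7.46.

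The 3 chaperones that help to assemble the base had a median of -0.17. Psmd9 read 6.99 and 7.17 against 7.22 and 7.37 (-0.22, SE 0.10, limma adjusted p = 0.335). Psmd10, also known as gankyrin, read 7.81 and 8.07 against 8.13 and 8.09 (-0.17), and Psmd5 read 7.93 and 8.15 against 8.13 and 8.09 (-0.070). In all 3 genes knockout array 1 was the lowest, and without it the median was -0.039.

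The activators open the gate of the core without a need for ubiquitin. Psme1 and Psme2 form one mixed ring, yet their values lay on opposite sides. Psme2 read 9.16 and 9.21 in knockout against 9.32 and 9.31 in wild-type arrays (-0.13, SE 0.09, limma adjusted p = 0.521). Psme1 read 10.15 and 10.19 against 10.05 and 10.15 (0.067, SE 0.09, limma adjusted p = 0.772). Its groups all but touched, and under the median centring, which shifts all genes alike, its difference was -0.019. Psme3, which forms the activator of the nucleus, read 9.20 and 9.22 against 9.32 and 9.31 (-0.10, SE 0.09, limma adjusted p = 0.628). Psme4, a large activator linked to the breakdown of histones, read 7.71 and 7.76 against 7.91 and 7.82 (-0.13, SE 0.09, limma adjusted p = 0.527). None of the 4 passed, and every 95% interval crossed 0.

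Neither of the symbols taken by name alone passed. Psmc3ip differed by -0.15 with overlapping groups, at 5.37 and 5.73 against 5.69 and 5.71, and without knockout array 1 it differed by 0.026. Psme3ip1 read 7.24 and 7.29 against 7.36 and 7.39 (-0.11).

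**Figure D3:**
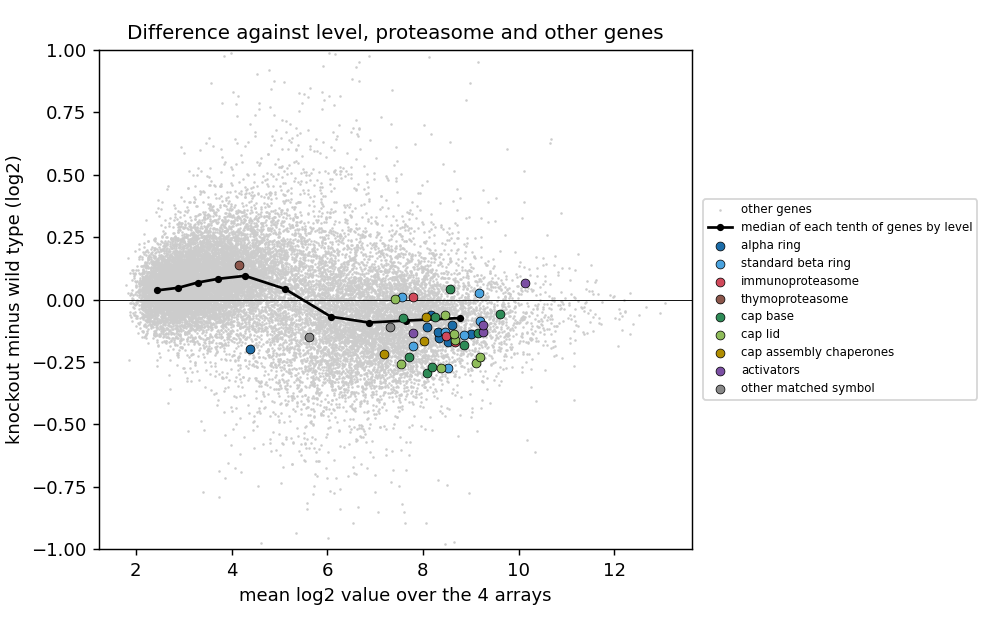
Knockout minus wild-type difference (vertical axis, log2) against the mean log2 value over the 4 arrays (horizontal axis), with proteasome genes coloured by role, other genes in grey (45 lie outside the plotted range) and a black line through the medians of 10 equal bins of genes by level. The line falls from 0.095 among genes with a median level of 4.28 to -0.092 at 6.87 and is -0.074 in the brightest bin, where 30 of the 45 proteasome genes lie.

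Several members had more than 1 probe set with a single gene symbol. The 3 probe sets of Psma3 differed by -0.10, -0.13 and -0.10 and those of Psmd2 by -0.056 and -0.085. The dimmer probe sets of Psma5 and Psmc1 differed by more than those used, at -0.33 against -0.13 and -0.35 against -0.27. Those of Psmb3 disagreed in sign, at 0.025 and -0.11. When all 35556 probe sets were tested singly none of these passed (limma adjusted p from 0.277 to 0.938). RefSeq lists pseudogene copies of Psma5, Psmb5, Psmb6 and Psmb7, so values of these genes may include signal from copies. The numbers of the probe sets used follow chromosome order, except for Psma3 (chromosome 12) and Psma5 (chromosome 3). Their values may thus come from copies elsewhere, but the positions of the probe sets were not checked. A dimmer probe set of Psma3 (-0.10) and that of Psma5 (-0.33) keep the order. A probe set annotated to both Psme2 and Psme2b, which the rule leaves out, read 8.26 and 8.18 against 8.47 and 8.44.

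Genes that build or regulate the proteasome were read from the same fit. Of 17 measured, 0 passed in either direction, and the median was -0.082. Psmg1, a chaperone of alpha ring assembly, read 7.45 and 7.53 against 7.88 and 7.84 (-0.38, SE 0.09, limma adjusted p = 0.0724). Nfe2l1, the transcription factor that raises proteasome genes when proteasome activity is short, read 7.68 and 7.80 against 7.39 and 7.43 (0.33, SE 0.09, limma adjusted p = 0.117). In both genes the groups did not overlap. Both knockout arrays were below in 7 of the 17 genes, Psmg1 among them, and above in 2, Nfe2l1 among them. Over all genes the shares were 23.2% and 24.4%. The cap deubiquitinase gene Uchl5 differed by -0.23 and Zfand2a, whose product binds the cap under stress, by -0.19. The assembly factor gene Pomp read 9.76 and 9.79 against 9.84 and 9.83 (-0.065).

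For ubiquitin activation and the shuttles that bring substrates, 12 genes were measured and 0 passed, with a median of -0.037. The smallest p-values were those of the shuttle gene Rad23b (-0.17), Ufd1, a partner of the unfoldase Vcp (-0.16), the activating enzyme gene Uba6 (0.15) and Ubqln2, another shuttle gene (-0.14). For MHC class I peptide loading, 11 genes were measured and 0 passed, with a median of -0.060. Nlrc5, the transactivator of class I genes, read 9.51 and 9.60 against 9.77 and 9.68 (-0.17, SE 0.09, limma adjusted p = 0.420). Irf1, an interferon-response factor that acts on Psmb9 and Tap1, read 8.87 and 9.05 against 9.08 and 9.17 (-0.16, SE 0.10, limma adjusted p = 0.463). Nlrc5 had 19 probe sets with a single gene symbol and Irf1 had 2. The values given are those of the brightest, and the others are not described here. Tapbpl and the trimming peptidase gene Erap1 differed by -0.14 and -0.082. Tap1, which shares its promoter with Psmb9, read 8.51 and 8.66 against 8.65 and 8.62 (-0.048, SE 0.10, limma adjusted p = 0.852). Its groups overlapped. In Psmb9 both knockout arrays were below, as in 48.7% of the brightest 10% of genes and 23.2% of all genes. Neither gene passed, and the difference between them was not tested.

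Over all genes, 448 passed the test, and array-to-array differences had an SD of 0.191 between the knockout arrays, 0.128 between the wild-type arrays and 0.192 to 0.254 across genotypes. Of the markers of CD8 T cells, 8 were measured, all of them in the brightest 10% of genes, and 0 passed. Their mean log2 level was 9.96 to 10.02 in the knockout and 10.08 in both wild-type arrays, 6 of the 8 differences were negative, and that of Thy1 was -0.34 (limma adjusted p = 0.109). Cd8a read 11.1 to 11.3 and Cd4 3.47 to 4.07 over the 4 arrays. Markers of other cells passed as higher in the knockout for 4 of 9 neutrophil genes, 4 of 10 genes of monocytes, macrophages and dendritic cells and 1 of 4 NK genes. The same held for 0 of 7 B cell and 0 of 3 CD4 T cell genes, and for 1.19% of all genes. The mean log2 level of the neutrophil list was 5.23 to 5.25 in the knockout arrays and 4.27 to 4.42 in the wild-type arrays, and that of the monocyte, macrophage and dendritic list 4.38 to 4.54 against 4.03 to 4.08. It was 3.94 to 4.02 against 3.71 to 3.75 for the NK list and 4.85 to 4.95 against 4.71 to 4.76 for the B cell list. Mpo (1.97), Prtn3 (1.71), Ctsg (1.70) and Elane (1.60) passed in the neutrophil list, Lyz2 (1.15), Mpeg1 (0.84), Flt3 (0.68) and Csf1r (0.58) in the monocyte, macrophage and dendritic list, and Tyrobp (0.62) in the NK list, with log2 differences in parentheses. The other neutrophil genes, Ngp, S100a8, S100a9, Ltf and Camp, were dim on all arrays, at 2.86 to 3.88. They differed by 0.055 to 0.33 and did not pass. Cd68 (-0.34) and Klrk1 (-0.26) lay on the other side and did not pass. In bulk RNA, fewer cells of a type and less RNA per cell cannot be told apart, and the part of these cells, of level and of knockout array 1 in the proteasome values was not tested beyond the values given.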

How the data were processed

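Each of the 4 samples was hybridised to its own array. The deposited table holds log2 probe-set values, and per the submitters' processing notes the authors used RMA and Partek, with no versions. RMA corrects background, quantile-normalizes the arrays and summarises probe sets, steps that act against a shift shared by all genes. The upper quartile over all deposited probe sets still differed between arrays. It was 6.52 and 6.63 in knockout arrays 1 and 2 and 6.67 and 6.66 in the wild-type arrays. No detection calls were used.

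Of 35556 probe sets, the platform annotation pairs 21789 with 1 gene symbol and 1621 with several. Current symbols came from RefSeq (GRCm38.p6) by gene identifier. The brightest single-gene probe set stood for each gene, giving 19938 genes with no filter on level. The genotypes were compared with limma (version 3.58.1, R 4.3.3) by lmFit and eBayes, two-sided, with Benjamini-Hochberg adjustment and a threshold of 0.05. Moderation had 8.06 prior degrees of freedom, and the script was tested on simulated data. Errors are limma standard errors (SE). Lists are described by counts and medians.

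The rule for named genes took Klf13, the cutting subunits, the activators, the 3 members of smallest p in each role group and, in each related list, the 4 of smallest p, some with a difference alone. The cell type markers with values, Pomp, Tap1 and the remaining members were added after their values were seen. The members and lists were chosen with earlier results of these data known. Alternatives were other uses of the probe sets, the brighter genes alone, further normalization and centring, a variance trend, the replicate number as a block and each array left out.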

Additional observations from a re-analysis of the deposited data

How the results depend on the processing

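Members passing the limma test numbered 0 of 45 with all probe sets tested singly, with the mean of each gene's probe sets, in the upper part of genes by level (43 members measured), after a further quantile normalization, with each array centred on its median and with each array centred on the brightest 10% of genes (members left out, an alternative chosen after seeing the data). With a variance trend and robust moderation 2 passed, both lower (Psmb2 and Psmd14), where 4.17% of all genes passed. Leaving out each array in turn gave 0 to 2, all lower, and the 2 came without knockout array 2 (Psmc4 and Psmd4), where 7.70% of all genes passed. No setting gave a higher call.

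The medians of all members, both core rings, the immunoproteasome, cap base, lid, chaperones and activators were negative in every setting above, but their size moved with scaling. A further quantile normalization gave -0.061 for all members, -0.065 for the alpha ring, -0.057 for the standard beta ring, -0.072 for the immunoproteasome, -0.059 for the cap base, -0.12 for the lid and -0.031 for the activators. Centring on array medians gave -0.22, -0.22, -0.22, -0.23, -0.22, -0.28 and -0.20 in the same order. Centring on the brightest 10% of genes gave -0.063, -0.063, -0.058, -0.074, -0.063, -0.13 and -0.045. Leaving out each array gave -0.18 to -0.075 for all members, -0.16 to -0.10 for the alpha ring, -0.18 to -0.066 for the standard beta ring, -0.22 to -0.059 for the immunoproteasome, -0.18 to -0.048 for the base, -0.23 to -0.12 for the lid, -0.30 to -0.039 for the chaperones and -0.13 to -0.091 for the activators. The cause was not tested.

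A further quantile normalization turned 6 (Psma7 0.0041, Psmc2 0.0069, Psmc3 0.00069, Psmd2 0.021, Psmd5 0.011 and Psmd8 0.0074), and centring on the bright genes turned 5 (Psma7 0.0079, Psmc2 0.0016, Psmd2 0.015, Psmd5 0.0015 and Psmd8 0.0099). Centring on array medians moves every gene by -0.086 and so turned 6 (Psmb3 -0.061, Psmb5 -0.075, Psmb10 -0.074, Psmc5 -0.045, Psmd3 -0.084 and Psme1 -0.019), and the mean of its probe sets turned Psmb3 (-0.043). With an array left out, 7 turned in at least 1 setting, and their ranges were -0.045 to 0.095 for Psmb3, -0.080 to 0.10 for Psmb5, -0.12 to 0.14 for Psmb10, -0.33 to 0.026 for Psmc3ip, -0.047 to 0.13 for Psmc5, -0.033 to 0.037 for Psmd3 and -0.18 to 0.036 for Psmd5.

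With the replicate number as a block 0 members passed, and the count over all genes was 1187 against 448. In that fit every member had the same standard error, 0.115, so the count rests on a spread pooled across genes. The deviations of same-numbered arrays correlated at 0.0074 across genes. With so few arrays per genotype this value cannot tell whether same-numbered samples were handled together, and the labels give only a number. The 4 arrays limit the precision, and the standard errors of the members ran from 0.09 to 0.12 log2 units.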
